A study of Mus musculus with 74 samples.

Results

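Developmental transcription factor families are the groups of DNA-binding regulators that set body pattern and cell identity, and 67 probes for 51 of their genes were followed here through a TGF-β time course in mouse cells. The probes were chosen by name: each carries a single gene symbol of the Hox, Sox, Fox, Gata, Tbx, Pax, Lhx, sine oculis, Meis, Pbx, Dlx, Msx, nuclear receptor (Nr, without the Nr4a genes), Id, Hes, Tcf, Tead or Runx families. They are 51 of 5844 genes with such a probe, and 67 of 8976 probes on the array, 7348 of which have a single symbol. Probes for 16 of these families were found, and 13 genes had more than 1 probe. The name rule is broader than homology: Tcf4 and Tcf21 are helix-loop-helix factors, Tcf7l1 is an HMG-box factor of Wnt signalling, and Tcf19 and Tcf25 belong to neither class.

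Measurements were log2 ratios on 74 dual-channel arrays, where channel 1 held RNA of cells without TGF-β and channel 2 RNA of cells of the same line given TGF-β. The 5 lines are labelled S2WT and S3WT (wild type), S2KO and S3KO (knockout) and U0126, the last with titles that set S2WT against U0126, an inhibitor of the kinase MEK. U0126 is called a line for short, and by its titles it is likely an inhibitor condition of S2WT cells. Averages over the 5 lines and pooled 0 h arrays then hold S2WT cells under both names. The difference of U0126 from S2WT would concern a treatment and not a genotype. The labels do not spell out S2 and S3, which stand for Smad2 and Smad3 in the published study of this design, nor do they name a cell type or say whether a line is a single clone. The times were 0, 0.3, 1, 2 and 4 h, and every line had 3 arrays at each of them apart from S3KO at 1 h, which had 2. The 0 h arrays carried untreated RNA in both channels, and these self-hybridisations give the background of each probe. Labels disagree in 3 places. The S2WT 4 h arrays also carry a 2 h label, both channels of S3KO at 0.3 h are labelled without TGF-β, and the U0126 titles read as S2WT against U0126 although each channel is labelled for both. For U0126 the channel labels were followed, and for the 4 h and 0.3 h groups the titles. A ratio within a line gives neither the level of a gene nor a check of the knockouts, nor of a cell type. Replicate arrays may be technical, since the labels name no separate cultures, and p-values then measure only the spread between arrays.

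TGF-β binds a pair of receptor kinases that phosphorylate Smad2 and Smad3, which enter the nucleus with Smad4. Smad proteins bind DNA weakly and rely on partner factors, among them forkhead, Runx and homeodomain proteins. Several members are also known as targets of TGF-β and BMP signalling, the Id genes best of all. Id proteins lack a basic region and hold helix-loop-helix factors off DNA, and Hes1 is a helix-loop-helix repressor of the Notch pathway.

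The direction of the deposited ratio is not stated. It was read as likely channel 2 over channel 1, because of 17 genes known to respond early to TGF-β, 10 of them tested, 6 were higher and 0 lower in the late response over all lines; that list was drawn up with earlier results of these data known. An array gave values for 7688 to 8713 probes, and its deposited median lay between -0.60 and 0.22 and was set to 0. Correlations between arrays over all probes ran from -0.19 to 0.48. The members were noisier than most probes: their median residual SD between replicate arrays was 0.70 against 0.45 for all probes tested in the late response over all lines, and 8.85% of their cells were missing against 6.48% overall. Signal behind the ratios is unknown. Changes below are log2 differences ± SE, called where the Benjamini-Hochberg adjusted p of limma's moderated test, over every probe tested, was under 0.05. Some arrays are said below not to overlap those of another group. Such separations were no planned comparison, and the share of all probes that separate so was not counted. They describe values and do not add to a call.

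Promoters of 3 members that the results turn on are shown for orientation, Foxo1 as the member called most often, Id4 as the one that stood apart in S2KO, and Tcf7l1 as a further called riser. Each holds 250 bases before and 50 after the start of the gene in RefSeq, build GRCm38.p6, written 5′ to 3′ on the strand of the gene, and capitals mark matches to any of 4 motifs searched on both strands. The motifs were the palindromic Smad element GTCTAGAC, the CAGA-type element CAGACA, the GC-rich Smad element GGCGCC and the forkhead element TGTTTAC.
Foxo1, chr3:52268087-52268386, plus strand: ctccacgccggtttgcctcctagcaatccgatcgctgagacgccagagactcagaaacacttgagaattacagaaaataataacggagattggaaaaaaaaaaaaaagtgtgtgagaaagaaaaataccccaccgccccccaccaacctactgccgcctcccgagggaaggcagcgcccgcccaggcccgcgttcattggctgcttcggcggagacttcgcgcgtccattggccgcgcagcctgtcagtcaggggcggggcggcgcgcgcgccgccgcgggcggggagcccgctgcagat
Id4, chr13:48260866-48261165, plus strand: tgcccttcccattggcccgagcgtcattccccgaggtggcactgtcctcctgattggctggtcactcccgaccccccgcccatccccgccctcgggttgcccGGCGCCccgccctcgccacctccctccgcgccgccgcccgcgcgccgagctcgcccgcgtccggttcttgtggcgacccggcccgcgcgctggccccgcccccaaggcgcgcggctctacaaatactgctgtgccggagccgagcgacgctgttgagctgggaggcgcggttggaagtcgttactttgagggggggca
Tcf7l1, chr6:72788996-72789295, minus strand: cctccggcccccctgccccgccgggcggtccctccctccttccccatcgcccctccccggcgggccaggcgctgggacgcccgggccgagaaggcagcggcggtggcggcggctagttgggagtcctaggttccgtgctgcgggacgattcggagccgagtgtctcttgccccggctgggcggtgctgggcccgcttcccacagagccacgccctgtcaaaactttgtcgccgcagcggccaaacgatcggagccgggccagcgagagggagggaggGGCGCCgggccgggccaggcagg
The window of Foxo1 held none of the 4 motifs, and those of Id4 and Tcf7l1 held GGCGCC once each. The windows of the called members Pbx2 and Hoxa7, searched as well but not shown, held none of the 4. That motif occurs in 11.9% of 32851 promoters of the same length, CAGACA in 21%, TGTTTAC in 3.65% and GTCTAGAC in 0.213%. Of 44 promoter windows found for 35 member genes, 8 held GGCGCC, 6 CAGACA, 1 TGTTTAC and 0 GTCTAGAC. These are matches of letters in a short window and not sites.

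The first comparison asks which members TGF-β changes at 1 to 4 h in the 5 lines together, each line set against its own 0 h arrays. Foxo1, a forkhead factor that insulin and Akt signalling keep out of the nucleus, was the one member called, at 0.74 ± 0.12 (adjusted p = 5.36e-05), among 44 members tested. The background was 1.07% of 6531 probes called. Foxo1 lay above the 0 h mean of its line on 40 of 43 treated arrays, by its probe 2461. Of the other members 23 could not be tested, because at least 1 group had fewer than 2 measured arrays. At an unadjusted p under 0.05 there were 9 members, 4 higher and 5 lower, against 10.5% of all probes. The median of the tested members was 0.01 and that of all tested probes 0.00.

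**Figure D1:**
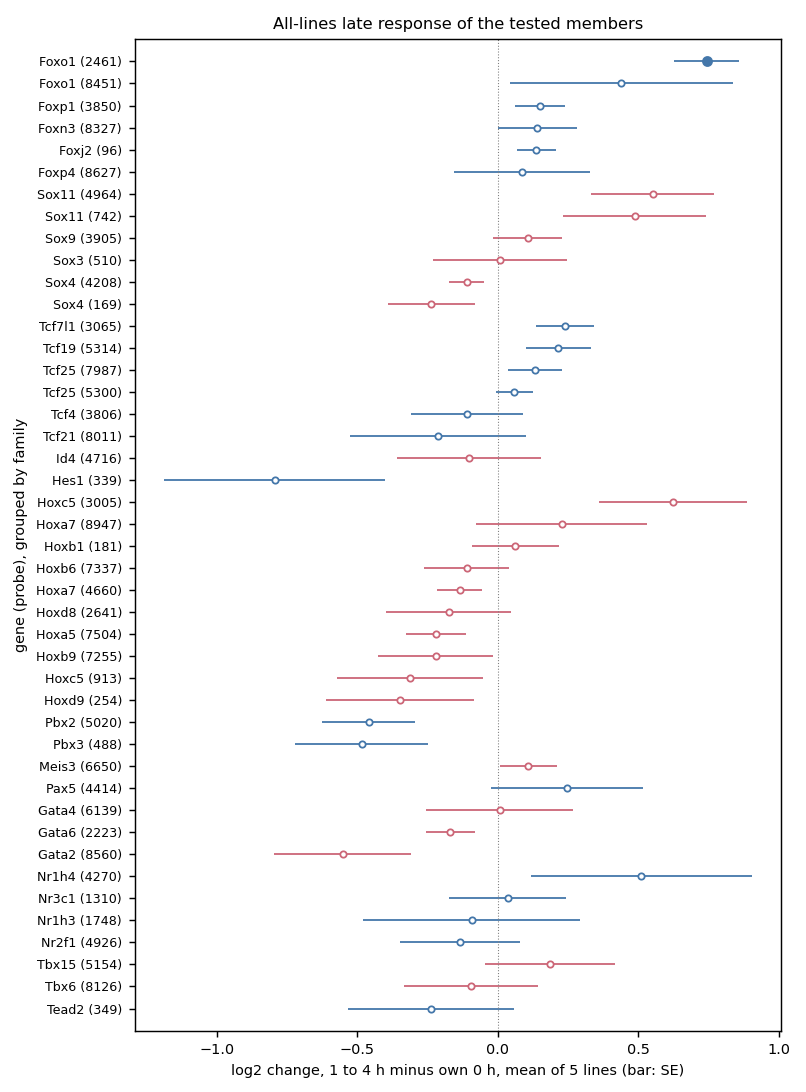
Log2 change at 1 to 4 h against own 0 h arrays, averaged over the 5 lines, for the 44 tested members, with the SE as a horizontal bar and families in alternating colours. The filled point at 0.74 is Foxo1 probe 2461, the one called member; most others lie within 0.5 of 0.

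The highest group mean of Foxo1 probe 2461 was at 2 h in each line. A direct test of 2 h against 4 h did not pass, as given below, and 2 h was not tested against 1 h. On probe 2461 the 3 S2WT arrays read 0.82, 1.05 and 1.18 at 2 h, the S3WT arrays 1.26, 0.55 and 0.47, and the S2KO arrays 1.87, 1.38 and 1.45. The U0126 arrays read 0.82, 0.73 and 0.80 at that time, and the S3KO arrays 0.12, 0.10 and 0.09. At 2 h S2KO thus lay above every other line without overlap, and S3KO below every other line. At 1 h the values were 0.57, 0.32 and 0.59 in S2WT, 0.23, -0.21 and 0.62 in S3WT, 1.19, 0.73 and 0.65 in S2KO, -0.03 and -0.16 in S3KO, and 0.47, 0.72 and 0.38 in U0126. By 4 h they stood at 0.58, 0.62 and 0.76 in S2WT, 0.59, 0.93 and 0.24 in S3WT, and 0.99, 0.31 and 0.28 in S2KO. The 4 h values of S3KO were 0.03, 0.13 and -0.48, and the 2 measured U0126 arrays gave 0.15 and 0.34. The S2KO and U0126 arrays of 4 h overlapped their 0 h arrays, which read 0.53, 0.49 and 0.28 in S2KO and 0.46, 0.35 and 0.18 in U0126.

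The 0 h arrays of Foxo1 were uneven. S2WT had 2 measured values, 0.07 and -1.79, S3WT had -0.62, -0.51 and 0.44, and S3KO had -0.51, -1.49 and -0.04. A line with low 0 h values gains in its own response, so values against pooled 0 h arrays of the 5 lines are given beside the own ones. Against own arrays Foxo1 was at 1.58 ± 0.29 in S2WT (adjusted p = 0.00442), 0.75 ± 0.25 in S3WT (adjusted p = 0.277), 0.55 ± 0.25 in S2KO (adjusted p = 0.503), 0.65 ± 0.25 in S3KO (adjusted p = 0.243) and 0.19 ± 0.25 in U0126 (adjusted p = 0.999). Without S2WT 0 h replicate 2 the S2WT value was 0.65 and its call was lost (adjusted p = 0.568), and fitted on S2WT arrays alone its adjusted p was 0.335. Without 0 h replicate 1 it was 2.51. The S3KO value was 0.24 without its 0 h replicate 2 and 0.97, where it was called, without its 0 h replicate 3. The S3WT value was 0.55 without its 0 h replicate 1 and 1.09, the one called case, without its 0 h replicate 3. Against pooled arrays Foxo1 rose by 0.92 ± 0.16 in S2WT, 0.72 ± 0.16 in S3WT, 1.19 ± 0.16 in S2KO and 0.72 ± 0.17 in U0126, with adjusted p of 0.000502, 0.0414, 1e-06 and 0.0235 by limma. In S3KO it was at 0.17 ± 0.17 (adjusted p = 1). These 5 values share the pooled arrays, and they assume a background common to the lines. When the pool lacked S3KO, S3WT (0.60, adjusted p = 0.194) and U0126 (0.60, adjusted p = 0.137) lost the call. Single arrays decided these calls too. The S3WT call was kept in 13 of 24 fits with 1 array omitted (0.54 to 0.91, adjusted p up to 0.145). It was lost without 0 h replicate 1 or 2, 1 h replicate 1 or 3, 2 h replicate 1 or 4 h replicate 1 or 2 of S3WT, and without 0 h replicate 2 of S2WT or S3KO or 0 h replicate 1 or 2 of U0126. The U0126 call was kept in 20 of 24 (0.53 to 0.90, adjusted p up to 0.0797) and lost without S2WT 0 h replicate 2, U0126 1 h replicate 2, or U0126 4 h replicate 1 or 3. The S2WT and S2KO calls were each kept in 24 of 24.

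**Figure D2:**
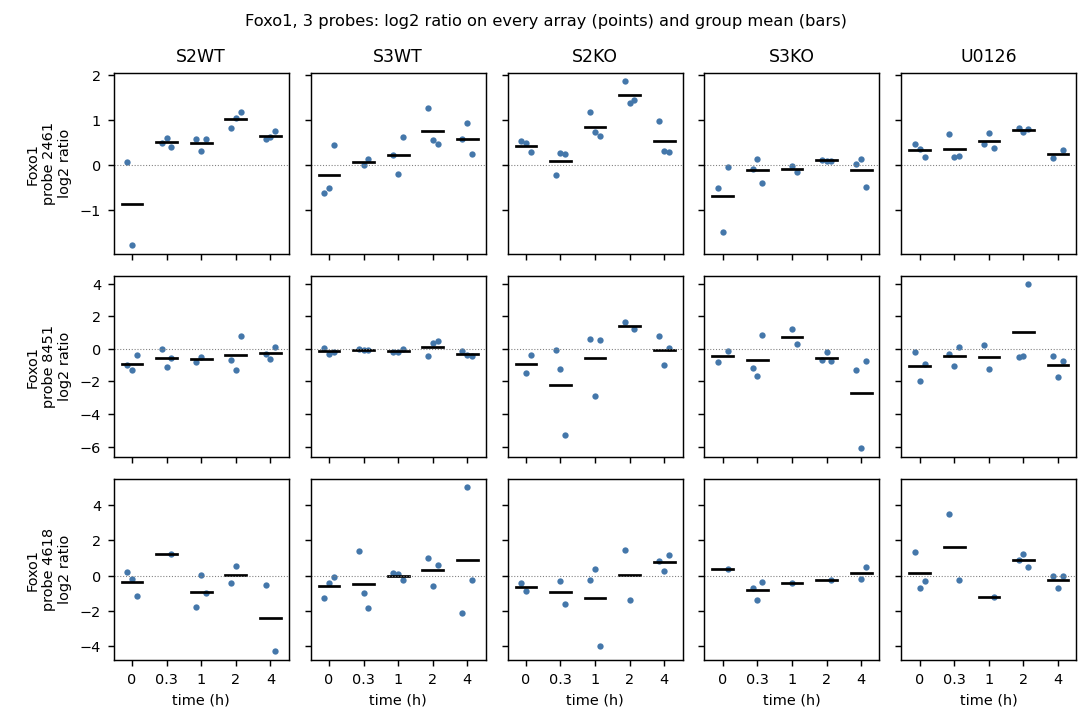
Log2 ratio of the 3 Foxo1 probes on every array (points) by line and time in hours, with the group mean as a black bar. Probe 2461 (top) reaches its highest group mean at 2 h in each of the 5 lines, from 0.10 in S3KO to 1.57 in S2KO; probes 8451 and 4618 spread over several log2 units.

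By time over the lines, Foxo1 was at 0.33 ± 0.16 at 0.3 h (4 lines, adjusted p = 1), 0.60 ± 0.14 at 1 h (adjusted p = 0.071), 1.05 ± 0.14 at 2 h (adjusted p = 9.88e-07) and 0.58 ± 0.14 at 4 h (adjusted p = 0.0105). The 2 h call was kept in 30 of 30 fits lacking 1 array each, between 0.86 and 1.23. The 4 h call was lost without S2WT 0 h replicate 2 (0.40, adjusted p = 0.0914) and, without the doubtfully labelled S2WT line, stood at 0.35 (adjusted p = 0.345). The late call over all lines was kept in 59 of 59 such fits, between 0.56 without S2WT 0 h replicate 2 and 0.93 without S2WT 0 h replicate 1. A direct test of 2 h against 4 h on the treated arrays, added after the values were seen, gave 0.46 ± 0.14 (adjusted p = 0.142). It called 0 of 53 members by limma, against 0.521% of all probes, with 9 at an unadjusted p under 0.05 (background 7.91%).

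The other Foxo1 probes did not pass. Probe 8451 was at 0.44 ± 0.40 over all lines at 1 to 4 h. At 2 h it was at 1.02 ± 0.48 (adjusted p = 0.483), an estimate close to that of probe 2461 but with a larger error. Its residual SD was 1.22, against 0.37 for probe 2461. Probe 4618 was measured on 58 of 74 arrays, could be tested in 4 of 18 comparisons and had a residual SD of 1.45. With the probes of each gene averaged Foxo1 was at 0.48 (adjusted p = 0.354), so the finding rests on 1 probe.

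Whether Foxo1 responds differently between lines was tested as a difference of own responses. It was -1.03 ± 0.38 for S2KO minus S2WT (95% interval -1.79 to -0.26, adjusted p = 0.523), -0.10 ± 0.35 for S3KO minus S3WT (-0.81 to 0.61, adjusted p = 0.984) and -1.39 ± 0.38 for U0126 minus S2WT (-2.16 to -0.62, adjusted p = 0.351). None passed, and each turned on single 0 h arrays. The S3KO minus S3WT value was -0.51 without S3KO 0 h replicate 2 and 0.22, of the opposite sign, without S3KO 0 h replicate 3. The other two turned on S2WT. Without its 0 h replicate 2 they were at -0.10 and -0.46, and without its 0 h replicate 1 at -1.96 and -2.33, where both were called. A direct comparison of the 2 h arrays, also added after the values were seen, gave -0.66 ± 0.30 for S3KO minus S3WT (-1.26 to -0.05, adjusted p = 0.857), 0.55 ± 0.30 for S2KO minus S2WT (-0.06 to 1.16, adjusted p = 0.661) and -0.24 ± 0.30 for U0126 minus S2WT (-0.84 to 0.37, adjusted p = 1). In these direct comparisons 0 members were called by limma, with 5 of 65, 8 of 60 and 1 of 62 at an unadjusted p under 0.05, against backgrounds of 5.48%, 8.65% and 4.26% unadjusted and 0.00%, 0.200% and 0.00% adjusted. S3KO was not compared directly with S2WT, S2KO or U0126.

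Of the other forkhead genes none was called. All 6 forkhead probes tested over the lines, for 5 genes, were positive, from 0.09 to 0.74, where 50.9% of all tested probes were positive. Only Foxo1 probe 2461 was called. Foxj2 was at 0.14 ± 0.07, Foxp1 at 0.15 ± 0.09 and Foxn3 at 0.14 ± 0.14 on its tested probe 8327. Foxc2, a factor of mesenchyme and vessels, and Foxd1, a marker of kidney stroma, could not be tested over all lines at 1 to 4 h. In S2KO Foxc2 read -0.55, -0.19 and 0.28 at 0 h and 1.59, 1.52 and 0.99 at 4 h. How many of all probes separate so was not counted. Its late value there was 0.95 ± 0.68 against own arrays (adjusted p = 0.835). In U0126 the 4 h arrays of Foxc2 read -0.85, -1.1 and -0.90, below the 0 h values of 0.15, -0.47 and -0.01. Foxd1 in S3WT read -1.89, -1.37 and -0.97 at 0 h, below each of its 7 measured arrays of 1 to 4 h, which lay between -0.35 and 0.84. That late value was 1.47 ± 0.59 (adjusted p = 0.575), with treated means of 0.23 at 1 h, -0.05 at 2 h and 0.00 at 4 h. The 1 measured S3WT array at 0.3 h read -4.78. In S3KO the mean of Foxd1 went from 1.52 at 0 h to 0.62 at 2 h and 0.50 at 4 h. Over all lines 16 of 39 arrays of 1 to 4 h lay above the 0 h mean of their line.

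Among the HMG-box genes Tcf7l1, a repressor of Wnt target genes also called Tcf3, rose in S2KO by 0.58 ± 0.15 against pooled 0 h arrays (adjusted p = 0.0134). Its S2KO arrays read 0.73, 0.35 and 0.71 at 1 h, 0.74, 1.40 and 0.41 at 2 h and 0.32, 0.45 and -0.11 at 4 h, against 0.49, -0.46 and 0.14 at 0 h. The call was lost without S2KO 2 h replicate 2 (0.49, adjusted p = 0.0509), without S3KO in the pool (0.48, adjusted p = 0.0942), without centring (0.48, adjusted p = 0.0877) and with scaling (0.50, adjusted p = 0.0639). S2WT (0.36 ± 0.15) and U0126 (0.31 ± 0.15) had values of the same sign, whereas S3WT was at 0.01 and S3KO at -0.08, and none of these passed. Over the lines Tcf7l1 was at 0.37 ± 0.13 at 2 h and at 0.06 ± 0.13 at 4 h.

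Sox11, a factor of neural and mesenchymal progenitors, did not pass. Both of its probes were positive in each line against pooled arrays, values that share 1 baseline, while against own 0 h arrays probe 4964 was at -0.19 ± 0.49 in S3KO. Over the lines they were at 0.49 ± 0.26 (probe 742) and 0.55 ± 0.22 (probe 4964), and at 4 h at 0.66 ± 0.31 and 0.71 ± 0.27 (adjusted p = 0.286 and 0.15). In U0126 probe 742 read 0.72, 0.36 and 0.43 at 2 h and 0.39, 0.31 and 0.55 at 4 h, above its 0 h values of -0.13, -0.39 and -0.38 without overlap. In S2WT it read 0.69, 0.26 and 0.80 at 2 h and 0.32, 0.88 and 0.39 at 4 h, against -0.48, -0.25 and -0.09 at 0 h. In S3KO the 2 probes were at 0.16 and 0.11 against pooled arrays. Sox9, the cartilage factor, was at 0.11 ± 0.12 over the lines. Sox4, itself described as a TGF-β target in epithelial cells, was at -0.11 ± 0.06 and -0.24 ± 0.16 on its 2 probes.

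Id4 is the one Id gene with a single-symbol probe. In S2WT its values went from 0.48, 0.38 and 0.38 at 0 h to -0.38, -0.63 and -0.74 at 4 h, and in U0126 from 0.65, 0.26 and 0.55 to -0.35, -0.19 and -0.78. Neither pair of groups overlapped. In S3WT the 4 h arrays read -0.98, -0.20 and -4.27 and overlapped the 2 measured 0 h arrays, at 0.38 and -1.24. In S3KO they were 0.56, 0.44 and 0.23, all above 0, and above its 0 h values of -0.15, -0.22 and 0.33 except for 1 array. Over the lines Id4 at 4 h was at -0.73 ± 0.31 and did not pass (adjusted p = 0.22).

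In S2KO, in contrast, Id4 was high from the start, with 1.62 and 1.08 on the 2 measured 0 h arrays, where both channels lacked TGF-β. It read 0.71, 1.17 and 3.75 at 1 h, 1.32, 3.09 and 1.78 at 2 h and 0.27, 1.71 and -0.26 at 4 h. Against pooled 0 h arrays its late value was 1.14 ± 0.35 (adjusted p = 0.0672), but against own arrays only 0.15 ± 0.62. The difference of own responses between S2KO and S2WT was 0.73 ± 0.82 (95% interval -0.91 to 2.38, adjusted p = 0.906). A direct comparison of the treated arrays called Id4 higher in S2KO by 1.67 ± 0.38 (adjusted p = 0.0276), 1 of 55 members tested, where 0.326% of all probes were called. That comparison keeps the line's background, which was high at 0 h as well.

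**Figure D3:**
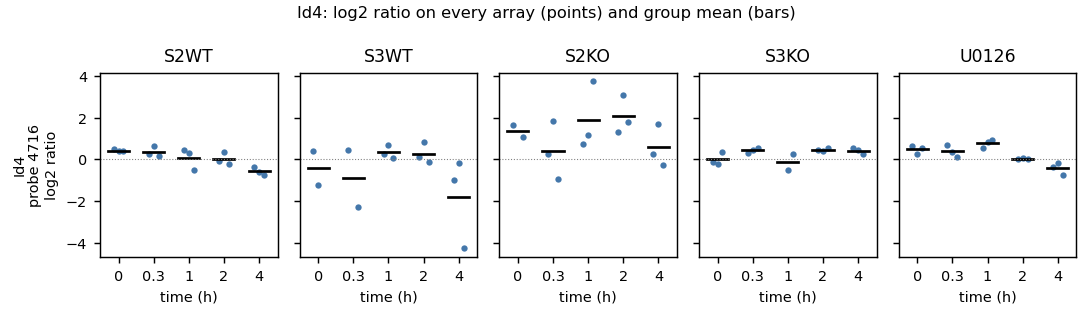
Log2 ratio of Id4 (probe 4716) on every array (points) by line and time in hours, with the group mean as a black bar. At 4 h the 3 S2WT arrays lie between -0.74 and -0.38 and the 3 U0126 arrays between -0.78 and -0.19, while S2KO is already at a mean of 1.35 at 0 h.

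Hes1 was the lowest tested member over the lines at -0.79 ± 0.39, on a probe with a residual SD of 1.30, and at 4 h it stood at -1.58 ± 0.50 (adjusted p = 0.0707). Its 4 h arrays were far apart, with 0.68, 0.46 and -4.18 in S2KO and -0.08, -0.16 and -2.74 in U0126. Tcf4, a partner that Id proteins bind, was at -0.11 ± 0.20 on its tested probe 3806.

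Hox genes, which specify position along the body axis, gave a call at 4 h alone. Hoxa7 fell by 0.36 ± 0.10 at 4 h over the lines on probe 4660 (adjusted p = 0.0266). Its 4 h arrays read -0.05, -0.23 and -0.70 in S2WT, -0.32, 0.05 and -0.16 in S3WT, -0.80, -0.24 and -0.58 in S2KO, -0.32, 0.00 and -0.57 in S3KO and -0.48, -0.20 and -0.04 in U0126. Thus 13 of 15 were below 0, and in S2KO they lay below the 0 h values of 0.06, -0.07 and -0.01 without overlap. Omitting 1 array ended the call in 7 of 30 cases, with adjusted p up to 0.0938: without 4 h replicate 1 of S2KO, S3WT or U0126, 4 h replicate 3 of S2WT or S3KO, or 0 h replicate 2 of S3KO or S3WT. It was also lost without centring (-0.35, adjusted p = 0.0852) and without S2WT (-0.35, adjusted p = 0.0958). Its other probe, 8947, was at -0.03 ± 0.39.

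Hoxa5 was next, at -0.43 ± 0.13 at 4 h (adjusted p = 0.0562). In U0126 it read -0.14, -0.26 and -0.56 at 4 h against 0.51, 0.45 and 0.49 at 0 h, and in S3WT -0.40, -0.29 and -0.16 against 0.21, 0.26 and 0.08, without overlap in either line. In S3KO the 4 h values of 0.12, -0.25 and 0.34 overlapped the 0 h ones. Of 10 Hox probes tested in the late response over all lines 7 were negative and 3 positive, from -0.35 to 0.62, and the 2 Hoxc5 probes pointed opposite ways, at -0.31 ± 0.26 and 0.62 ± 0.26. In S3KO Hoxd9 was at -1.30 ± 0.40 and Hoxb9 probe 7255 at -0.93 ± 0.31 against pooled arrays (adjusted p = 0.531 and 0.654). The other Hoxb9 probe, 5000, had 1 measured S3KO array at 1 h and could not be tested there. Its S3KO means were -0.62 at 0 h, -0.22 at 2 h and 0.70 at 4 h.

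Pbx proteins are the homeodomain partners of Hox proteins on DNA, and both tested members were negative over the lines. Pbx2 was at -0.46 ± 0.17 (adjusted p = 0.26) and Pbx3 at -0.48 ± 0.24 (adjusted p = 0.461). In U0126 Pbx2 fell by 0.90 ± 0.23 against pooled arrays (adjusted p = 0.0398). Its U0126 arrays read -1.02, -1.60 and -0.02 at 1 h, 0.12, -1.35 and 0.02 at 2 h and 0.24, 0.22 and -0.72 at 4 h, so 4 of 9 carried the fall, against 0.09, 0.19 and 1.52 at 0 h. Omitting 1 array kept the call in 13 of 24 cases, with values between -1.04 and -0.74. It was lost without U0126 2 h replicate 2 (-0.74, adjusted p = 0.15), and without U0126 0 h replicate 3, 1 h replicate 2 or 4 h replicate 1 or 3. It was lost as well without 0 h replicate 1 of S2KO or S3KO, 0 h replicate 3 of S2WT or any 0 h array of S3WT. Without centring (-0.90, adjusted p = 0.0564), with scaling (-0.92, adjusted p = 0.0541) and without S3KO in the pool (-0.84, adjusted p = 0.125) it did not pass. Against own 0 h arrays the difference of U0126 from S2WT was -1.23 ± 0.55 (adjusted p = 0.779). Meis3, of the related Meis homeodomain genes, was at 0.11 ± 0.10.

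Among the Gata zinc-finger genes, Gata6, a factor of endoderm, heart and smooth muscle, fell in S2WT by 0.54 ± 0.12 against pooled arrays (adjusted p = 0.0128). Its S2WT arrays read -0.70, -0.20 and -0.21 at 1 h, -0.81, -0.51 and -0.45 at 2 h and -1.0, -0.22 and -0.65 at 4 h, each of them below 0, while at 0 h they read 0.37, -0.24 and 0.36. Against own arrays it was at -0.69. U0126 was at -0.33 ± 0.12 (adjusted p = 0.259), S2KO at -0.11, S3WT at 0.10 and S3KO at 0.03. The S2KO minus S2WT difference of own responses was 0.90 ± 0.27 (adjusted p = 0.382). The call was lost without S2WT 1 h replicate 1 or 4 h replicate 1 (adjusted p up to 0.0522) and with scaling (-0.46, adjusted p = 0.0552). Gata2, a factor of blood progenitors, was at -0.55 ± 0.24 over the lines, from values that include -2.66 and -2.76 on single S2WT arrays at 1 and 4 h and -3.63 on a S2KO array at 2 h.

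**Figure D4:**
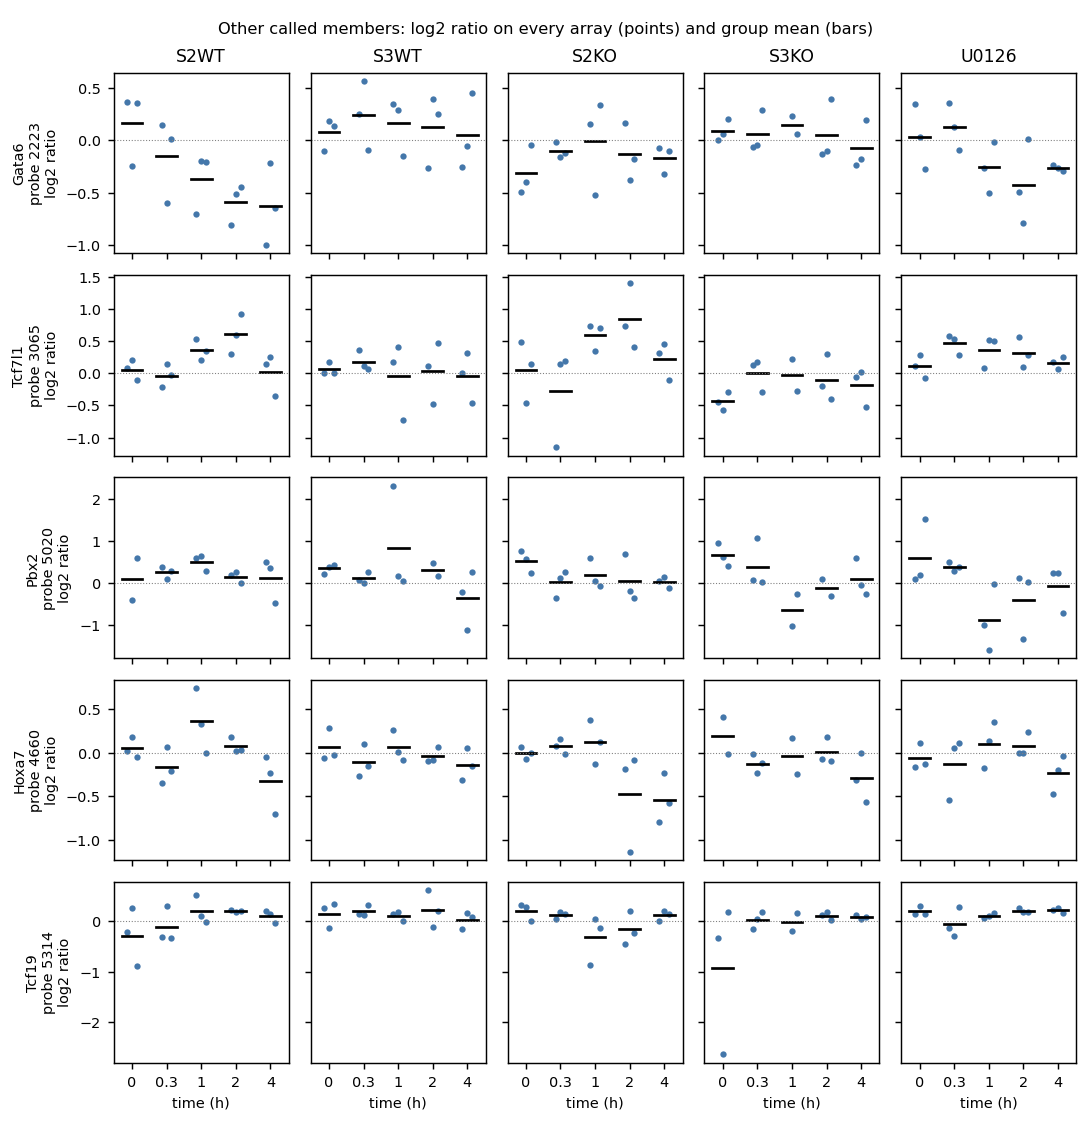
Log2 ratio on every array (points) of 5 further members called in some comparison, by line and time in hours, with the group mean as a black bar. Gata6 in S2WT runs from a mean of 0.16 at 0 h to -0.62 at 4 h, and the Tcf19 call in S3KO goes with a single 0 h array at -2.63.

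Tcf19, a gene named for its growth-regulated expression, was called in S3KO against own 0 h arrays at 0.99 ± 0.26 (adjusted p = 0.0392). The 8 treated arrays lay between -0.20 and 0.17, and the 0 h arrays read -0.34, -2.63 and 0.17. Without S3KO 0 h replicate 2 it was at 0.14 (adjusted p = 0.999). The call was also lost without 1 h replicate 3, 2 h replicate 1 or 2, or 4 h replicate 1, without centring (0.88, adjusted p = 0.0978) and on S3KO arrays alone (adjusted p = 0.634). Without 0 h replicate 3 it was at 1.54.

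Of the nuclear receptors, Nr3c1, the glucocorticoid receptor, was at 0.04 ± 0.21 and the orphan receptor Nr2f1 at -0.14 ± 0.21 over the lines. Runx1, a blood and skeletal factor whose family binds Smad proteins, was measured on 61 arrays and could be tested in 3 comparisons, and it passed in none. Tbx3, on 3 probes, could not be tested over all lines, and its probe 7459 was the one member tested nowhere.

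By time over the lines, 0 of 51 members were called at 0.3 h by limma (0.00% of all probes), with 3 at an unadjusted p under 0.05 (background 4.33%), and 0 of 48 at 1 h (0.115%), with 10 unadjusted (5.50%). At 2 h 1 of 52 was called (0.831%), with 8 unadjusted (9.78%). At 4 h 2 of 52 were called, Foxo1 higher and Hoxa7 lower, against 3.02% of all probes. There 13 members had an unadjusted p under 0.05, 3 higher and 10 lower, while 8.96% of all probes were higher and 6.02% lower at that level. The 10 lower were Hoxa7, Hoxa5, Hoxb6, Hes1, Id4, Pbx2, Pbx3, Gata2, Gata6 and Gata4 probe 745, and 9 of them were not called. Gata4 probe 6139 was not among them. Its mean went from 0.24 at 0 h to 0.78 at 4 h in S2WT and from 0.30 to 0.60 in U0126. In S3WT, S2KO and S3KO its mean was lower at 4 h than at 0 h. Gata4 probe 6963 had 1 measured S2KO array at 4 h and was not tested.

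**Figure D5:**
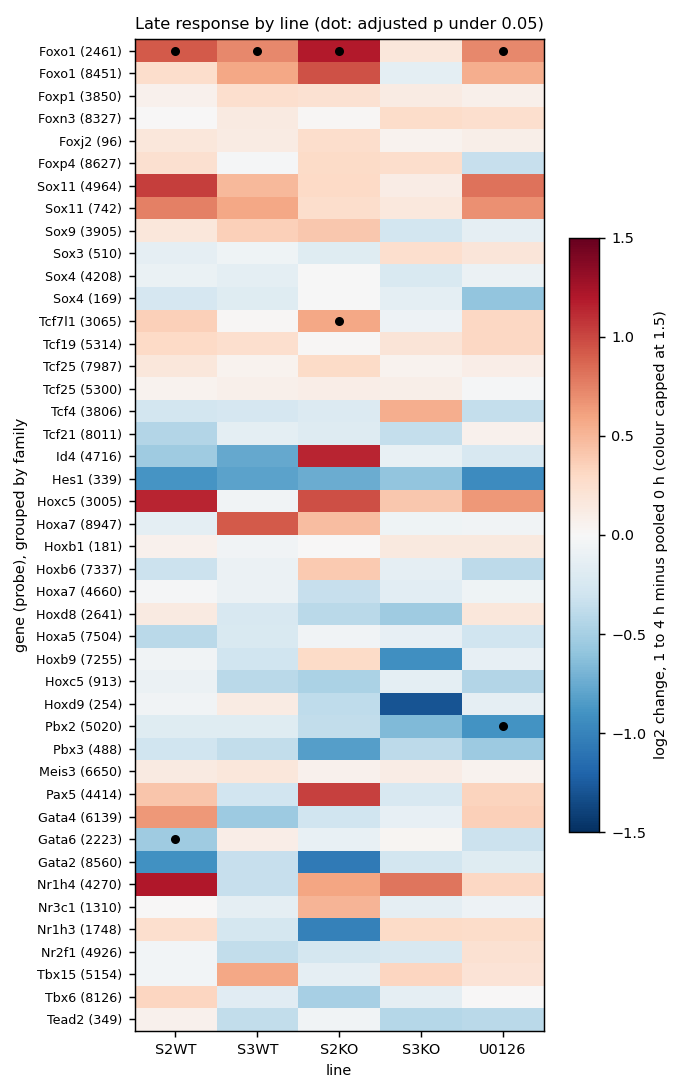
Log2 change at 1 to 4 h against pooled 0 h arrays for 44 members (rows, by family) in each line (columns), red for higher and blue for lower, with a dot where the adjusted p was under 0.05. Foxo1 probe 2461 carries 4 of the 7 dots and S3KO has none.

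By line against own 0 h arrays, members called were 1 of 57 in S2WT (Foxo1, background 0.192%), 0 of 62 in S3WT (0.120%), 0 of 58 in S2KO (0.515%), 1 of 54 in S3KO (Tcf19, 1.53%) and 0 of 61 in U0126 (0.0719%). In the 3 lines with 0 calls by limma, 6, 5 and 5 members had an unadjusted p under 0.05, against 5.47%, 8.22% and 6.35% of all probes. Against pooled arrays they were 2 of 54 in S2WT (Foxo1 and Gata6, 1.27%), 1 of 55 in S3WT (Foxo1, 0.146%), 2 of 51 in S2KO (Foxo1 and Tcf7l1, 2.49%), 0 of 50 in S3KO (0.0141%) and 2 of 55 in U0126 (Foxo1 and Pbx2, 0.782%). In S3KO 4 members had an unadjusted p under 0.05, 0 higher and 4 lower, against 366 of all probes (5.17%), 146 higher and 220 lower. Differences of own responses between lines were called for 0 of 52 members in S2KO minus S2WT (0.0386%), 0 of 51 in S3KO minus S3WT (0.126%) and 0 of 54 in U0126 minus S2WT (0.0252%) by limma. At an unadjusted p under 0.05 there were 3, 5 and 3, against 7.13%, 9.05% and 6.11%. In all, 6 of 66 testable member probes were called in at least 1 of 18 comparisons, and 5.91% of all testable probes were.

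Cofactors through which these factors act were followed as a list of 44 genes, 18 of which were tested over the lines. By limma 0 were called, with Ctbp2 at 0.43 ± 0.17 and Wwtr1, the coactivator TAZ that works with Tead proteins, at 0.17 ± 0.07 (adjusted p = 0.347 and 0.388). In S2KO Wwtr1 rose by 0.37 ± 0.10 against pooled arrays (adjusted p = 0.0327 by limma). It was the 1 call among 19 cofactor genes tested there, where 2.49% of all probes were called. In S3WT Wwtr1 was slightly higher, at 0.41 ± 0.11, but was not called (adjusted p = 0.13). Of 12 tested genes of the TGF-β and BMP signalling machinery 4 were called over the lines, Smurf1 (0.33) and Tgfbr1 (0.50) higher, Smurf2 higher and Tgfbr3 lower. Smurf2 was called on 1 of its 3 probes (0.31, with the others at 0.15 and -0.18), and Tgfbr3 on 1 of its 3 (-0.90, with the others at -0.37 and -0.08). Of the marker lists for fibroblast, endothelial, haematopoietic, muscle and neural cells 0 of 10 tested genes were called over the lines, and no epithelial marker could be tested. In S2KO the endothelial gene Eng, a TGF-β co-receptor, was at -1.08 ± 0.24 against pooled arrays (adjusted p = 0.00423), the 1 call among 3 endothelial genes tested there, and its part in the S2KO results was not tested.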

How the data were processed

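The authors deposited 1 table of log2 ratios of the 2 channels of each array; per the labels, 74 dual-channel arrays were hybridised. How the ratios were scanned, dye-assigned and normalised was not stated in the labels or the file, and signal values were not used here. Values above 16.6 (1344 of them, read as an empty denominator) and 41670 blank cells were missing. Each array was centred on its median. Group means of the 25 groups were fitted by least squares for each probe over all arrays in R 4.3.3, and variances were moderated with limma 3.58.1. A probe was tested with at least 2 measured arrays in each group of a comparison, and p-values were adjusted over all tested probes by Benjamini-Hochberg (threshold 0.05). Late means 1, 2 and 4 h weighted equally; 0.3 h leaves out S3KO. The code was tested on simulated data.

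Members, lists, comparisons and rules were chosen with earlier results of these data known. Named were members called anywhere, the 10 highest and 10 lowest by t in the late response over all lines, the 3 smallest p each way per line, and a fixed list (Id4, Foxo1, Runx1, Runx2, Sox4, Sox9, Hes1, Tcf7l2, Tcf4, Tead1, Gata2, Nr3c1, Nr2f1, where measured); others were named after their values were seen. Symbols came from the platform annotation, and all 67 members matched the RefSeq gene table. Alternatives were no centring, scaling, complete probes, a replicate block, other baselines and leaving out arrays.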

Additional observations from a re-analysis of the deposited data

How the results depend on the processing

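Foxo1 kept its late call over all lines without centring (0.70), with scaling (0.76), with the replicate block (0.74) and without S3KO (0.77). Counts of members called moved as follows. Without centring they were 1 at 4 h, 0 in S3KO against own arrays, and 1 in S2KO and 1 in U0126 against pooled arrays. Scaling gave 2 in S3KO against own arrays, 1 each in S2WT, S2KO and U0126 against pooled arrays, and 1 for S3KO minus S3WT. Only 9 members were measured on every array, without Foxo1, and gave 0 over all lines, at 2 h, in S2WT against own arrays and in S3WT and U0126 against pooled arrays, and 1 at 4 h and in S2WT and S2KO against pooled arrays. Treated arrays against 0, which keep the 0 h background of a probe, gave 14 of 46 members over all lines, where 3478 of 6935 probes (50.2%) were called. Gene averages gave 0 of 39 by limma, 8 at an unadjusted p under 0.05, where 45 of 4607 genes (0.977%) were called. At 4 h without S2WT the count was 0. Fits on a single line gave 0 in S2WT and S3KO. Without S3KO in the pool S3WT and U0126 had 0 and S2KO 1. Treated arrays compared directly gave 1 of 55 for S2KO minus S2WT, Id4, where 26 of 7987 probes (0.326%) were called. Leaving out 1 array gave 1 to 1 over all lines and at 2 h, 0 to 0 at 0.3 h, 0 to 1 at 1 h and 1 to 4 at 4 h (4 without S2KO 4 h replicate 2). Against own arrays it gave 1 to 1 in S2WT, 0 to 1 in S3WT and S2KO, 0 to 5 in S3KO (5 without 0 h replicate 3) and 0 to 0 in U0126. Against pooled arrays it gave 1 to 3 in S2WT, 0 to 1 in S3WT, 1 to 4 in S2KO, 0 to 2 in S3KO and 0 to 3 in U0126. Differences gave 0 to 1 for S2KO or U0126 minus S2WT and 0 to 4 for S3KO minus S3WT (4 without S3KO 0 h replicate 3).

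The labels do not say that a replicate number marks a shared culture or day. Deviations of same-numbered arrays of a line correlated at -0.13 to 0.29, so not every pair was above 0.1, and the numbers were not used as pairs. Their medians by line, 0.03 to 0.12, were above those of differently numbered arrays, -0.09 to -0.03, and in S3KO the lowest of 18 same-number values was 0.02. That is a hint from the data, not from the design. With the replicate block 1 member was called over all lines, and the count at 4 h was 3 instead of 2; other counts it allowed did not change. The block could not be fitted against pooled arrays.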

Other observations

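Comparing 2 h with 4 h on the treated arrays of the 5 lines, a contrast added after the values were seen that needs no 0 h arrays, 0 of 53 members were called by limma, where 0.521% of all probes were. At an unadjusted p under 0.05 there were 9 members, 9 of them higher at 2 h and 0 higher at 4 h, where 607 of all probes passed (7.91%), 261 higher and 346 lower at 2 h. The 9 were 2 of the 3 Foxo1 probes, Foxj2, Id4 (0.94 ± 0.29, adjusted p = 0.171), Hes1 (1.06 ± 0.50), Tcf7l1 (0.31 ± 0.13), Hoxa7 (probe 4660, 0.24 ± 0.09), Hoxb6 (0.42 ± 0.18) and Hoxb9 (probe 7255, 0.60 ± 0.25). The other Hoxb9 probe, 5000, was not among them. Its mean was lower at 2 h than at 4 h in S3WT, S2KO and S3KO, and higher in S2WT and U0126. In S3KO the means at 2 h and 4 h were 0.37 and -1.51 on probe 7255, but -0.22 and 0.70 on probe 5000. The median over the members was 0.12 and over all probes -0.02. The contrast uses the same 2 h and 4 h arrays as the comparisons by time, so it is no separate support for them. Id4, Hes1, Hoxa7 and Hoxb6 were also among the members lower at 4 h there. Label doubt on the S2WT 4 h arrays touches this contrast, and its part was not tested. Some 4 h arrays were also far apart, with an SD of 2.16 for Id4 in S3WT and 2.75 for Hes1 in S2KO. In S3KO the Id4 means were 0.46 at 2 h and 0.41 at 4 h.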
